A study of Mus musculus with 6 samples.

Results

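The 7 genes described here encode the myosin chains of heart muscle and the kinase that acts on one of them: the heavy chains Myh6 (alpha) and Myh7 (beta), the ventricular light chains Myl2 and Myl3, the atrial light chains Myl4 and Myl7, and the cardiac light chain kinase Mylk3. Their probes were found by gene symbol on the array, and they are 7 of 28786 gene names and 11 of 41174 probes. By the scanner's gene name, 6 genes with 10 probes were found. Mylk3 was found under the older name D830007F02Rik, which the RefSeq gene table lists as its synonym, with 1 probe. RNA from the hearts of 6 male mice of the inbred wild-type strain C57BL/6 was measured on 1-colour arrays with 1 array per heart. The sham group held 3 mice that had a sham operation and kept their adrenal glands, and the adrenalectomized group held 3 mice whose adrenal glands, the main source of corticosterone and aldosterone, were removed. Surgery was at 1 month of age and hearts were collected 6 months later, although another label calls the mice 6 months old. The samples are whole heart RNA, so atrial and ventricular muscle were measured together, and fewer cells of a kind cannot be told apart from less RNA per cell.

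Myosin is the motor of the thick filament: a pair of heavy chains hydrolyse ATP and pull on actin, and each carries an essential and a regulatory light chain on its neck. The alpha heavy chain is the fast isoform of the adult mouse heart, whereas the beta chain is slower, predominates in the fetal ventricle and returns under haemodynamic load or low thyroid hormone. Myl3 and Myl4 are the essential chains and Myl2 and Myl7 the regulatory chains of ventricle and atrium, and Mylk3 phosphorylates Myl2. The ratio of Myl4 and Myl7 to Myl2 and Myl3 is therefore a usual readout of atrial against ventricular muscle.

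The probes set what each signal can mean. The 2 probes of Myh6 are shown because the array design lists the transcripts of both Myh6 and Myh7 for each of them, so their signal may include beta chain RNA; the Myh7 probes list only Myh7. Myl4 is shown because its probes are not independent: they share the 47 bases in capitals. Those of Myl3 share no more than 8 bases in a row and gave opposite differences. All are 60 bases long and written 5′ to 3′.
Myh6, brighter probe: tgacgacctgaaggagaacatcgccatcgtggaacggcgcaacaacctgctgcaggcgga
Myh6, dimmer probe: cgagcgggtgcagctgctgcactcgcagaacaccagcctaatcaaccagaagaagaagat
Myl4, brighter probe: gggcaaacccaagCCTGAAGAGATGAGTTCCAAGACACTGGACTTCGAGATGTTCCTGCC
Myl4, dimmer probe: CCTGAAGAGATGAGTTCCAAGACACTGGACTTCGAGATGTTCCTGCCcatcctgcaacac
Myl3, brighter probe: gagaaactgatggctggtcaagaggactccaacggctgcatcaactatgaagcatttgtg
Myl3, dimmer probe: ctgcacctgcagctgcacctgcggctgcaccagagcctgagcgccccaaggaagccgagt
Myl2: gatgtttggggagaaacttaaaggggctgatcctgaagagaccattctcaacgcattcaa
In design coordinates of the mm7 assembly these lie at chr14:49813005-49813064 and chr14:49811341-49812926 (minus strand) for Myh6, chr11:104693149-104693519 and chr11:104693162-104693532 (plus strand) for Myl4, chr9:110466830-110467124 and chr9:110461523-110461582 (plus strand) for Myl3, and chr5:121338175-121339125 (plus strand) for Myl2, in the order printed. The dimmer Myh6 probe, both Myl4 probes, the brighter Myl3 probe and the Myl2 probe span more than 60 genomic bases, so they cross an intron. The remaining probes lie at chr14:49837275-49837334 and chr14:49837280-49837339 (minus strand) for Myh7, which share 55 bases, at chr11:5848640-5848699 (minus strand) for Myl7 and at chr8:83917840-83917899 (minus strand) for Mylk3. No gene annotation of mm7 was used here, so exons and untranslated regions are not assigned.

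Levels are log2 processed signals minus the 75th percentile of the array, so 0 is the 75th percentile of the noncontrol spots, and a gene with several probes is represented by the brightest. The 75th percentile ran from 644 to 924 intensity units, and 57.7% to 66.8% of spots were well above background. Slide 1 carried all sham hearts and adrenalectomized replicate 1, and slide 2 carried the other adrenalectomized hearts, so a value within slide 1 sets 1 adrenalectomized array against 3 sham arrays. The number of arrays limits the precision. All 11 myosin probes were well above background on all 6 arrays.

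Of the 7 genes, 0 passed a Benjamini-Hochberg adjusted p of 0.05 in limma, where 7 of 16948 genes (0.0413%) did, 0.0295% higher and 0.0118% lower in adrenalectomized hearts. All 7 had a mean below that of the sham hearts, where 43.4% of all genes did, and their median log2 difference was -0.26 against 0.03 for all genes. With the unsaturated Myl3 probe in place of the brighter one, 6 of 7 lay below and the median was again -0.26. The atrial light chains and Mylk3 had non-overlapping groups, 3 of 7 genes (42.9%) on the lower side, where 7.89% of all genes had; on the higher side these were 0 of 7 against 10.3%. Myl4, Myl7 and Myh7 had an unadjusted p under 0.05 on the lower side, also 42.9%, where 5.99% of all genes did, and 0 of 7 against 6.27% on the higher side. The direction depends on the background correction: with normexp on the local background, Myh6, Myl2, Myl3 and Mylk3 turned above the sham mean (0.26, 0.22, 0.21 and 0.07), while Myl4, Myl7 and Myh7 stayed below it at -0.13, -0.16 and -0.08. Within slide 1 the differences of Myh6, Myl2, Myl3 and Mylk3 were -0.16, -0.11, -0.06 and -0.29. After quantile normalization Myh6, Myl2, Myl3 and Mylk3 differed by 0.0039, -0.06, -0.06 and -0.28, and Myl4, Myl7 and Myh7 by -0.40, -0.38 and -0.42.

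**Figure D1:**
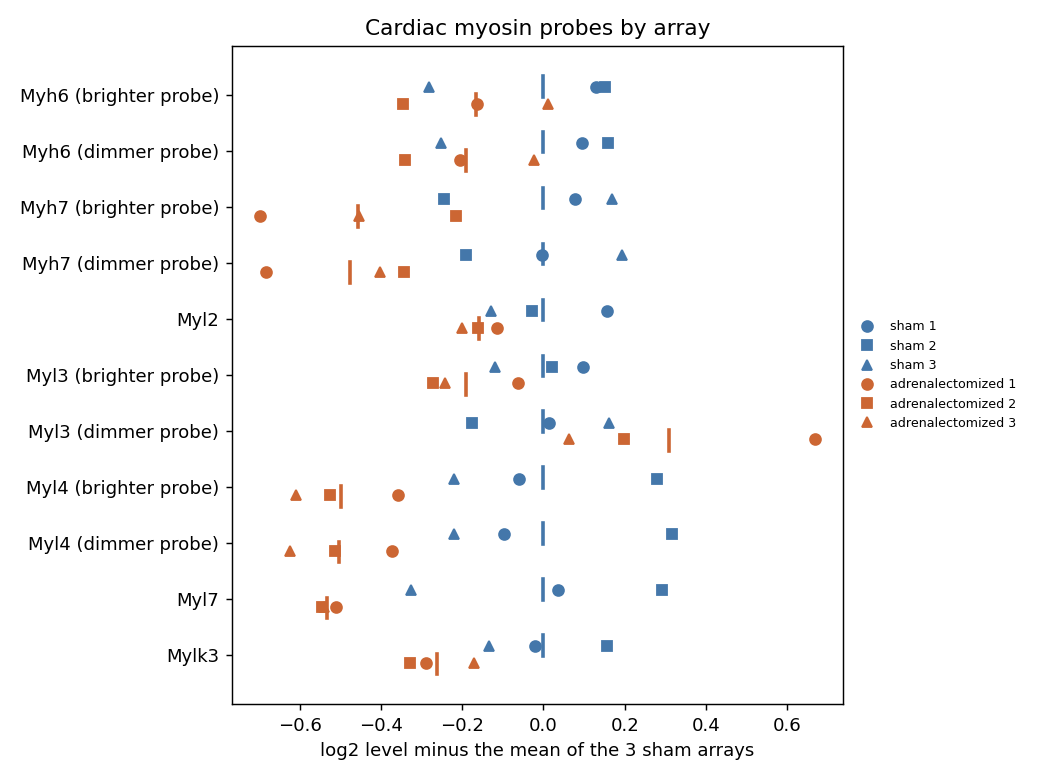
Log2 level of each of the 11 myosin probes on each array, as the distance from the mean of the 3 sham arrays (horizontal axis). Symbols are replicates, vertical bars are group means. All 3 adrenalectomized values lie below all sham values for both Myl4 probes, Myl7, Mylk3 and the dimmer Myh7 probe, and the dimmer Myl3 probe is the only one with a higher adrenalectomized mean.

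Of the 4 cardiac light chains, by their brightest probes, the atrial pair had the wider differences. Myl7, the atrial regulatory chain, measured 8.79, 9.05 and 8.43 in sham hearts and 8.25, 8.21 and 8.22 in adrenalectomized hearts. The highest adrenalectomized value thus lay under the lowest sham value, and the sham hearts spread far more (8.76 ± 0.31) than the adrenalectomized hearts (8.22 ± 0.02; SD, n = 3). The log2 difference was -0.53 (SE 0.16, 95% interval -0.92 to -0.14; limma adjusted p = 0.300), or 1.45-fold.

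Myl4, the atrial essential chain, also had non-overlapping groups, at 7.54, 7.88 and 7.37 in sham hearts and 7.24, 7.07 and 6.99 in adrenalectomized hearts. The means were 7.60 ± 0.26 and 7.10 ± 0.13 (SD, n = 3). The difference was -0.50 (SE 0.15, interval -0.87 to -0.13; limma adjusted p = 0.300), or 1.41-fold, and the dimmer probe gave -0.50 (SE 0.16). Sham replicate 2 was the highest array for both atrial chains. Without it the differences were -0.39 for Myl7 and -0.36 for Myl4, and within slide 1 they were -0.51 and -0.36.

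The ventricular chains had narrower differences that overlapped between groups. Myl2, the regulatory chain, measured 9.67, 9.48 and 9.38 in sham hearts and 9.39, 9.35 and 9.31 in adrenalectomized hearts, a difference of -0.16 (SE 0.11, interval -0.43 to 0.11; limma adjusted p = 0.600). The sham array of lowest Myl2 lay between the adrenalectomized arrays. For Myl3, the essential chain, the brighter probe measured 9.82, 9.75 and 9.61 against 9.66, 9.46 and 9.48, a difference of -0.19 (SE 0.11, interval -0.46 to 0.08; limma adjusted p = 0.539).

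The probes of Myl3 disagreed. The dimmer one, fitted among all probes as the other dimmer probes were, gave 0.31 (SE 0.18, interval -0.12 to 0.74), with sham and adrenalectomized means of 5.48 ± 0.17 and 5.79 ± 0.32 (SD, n = 3), and the mean of both probes gave 0.06. Over the 6 arrays the probes of Myl3 had a Pearson r of -0.21, where the paired probes of Myh6, Myh7 and Myl4 had 0.99, 0.97 and 1.00; these pairs share arrays and scaling, and those of Myh7 and Myl4 also share sequence. The brighter Myl3 probe was saturated on sham replicate 3 and was between 75.9% and 98.8% of the saturation value of the scan on the 6 arrays. The dimmer one was between 4.24% and 8.95%. The direction of Myl3 is therefore not settled by these arrays.

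**Figure D2:**
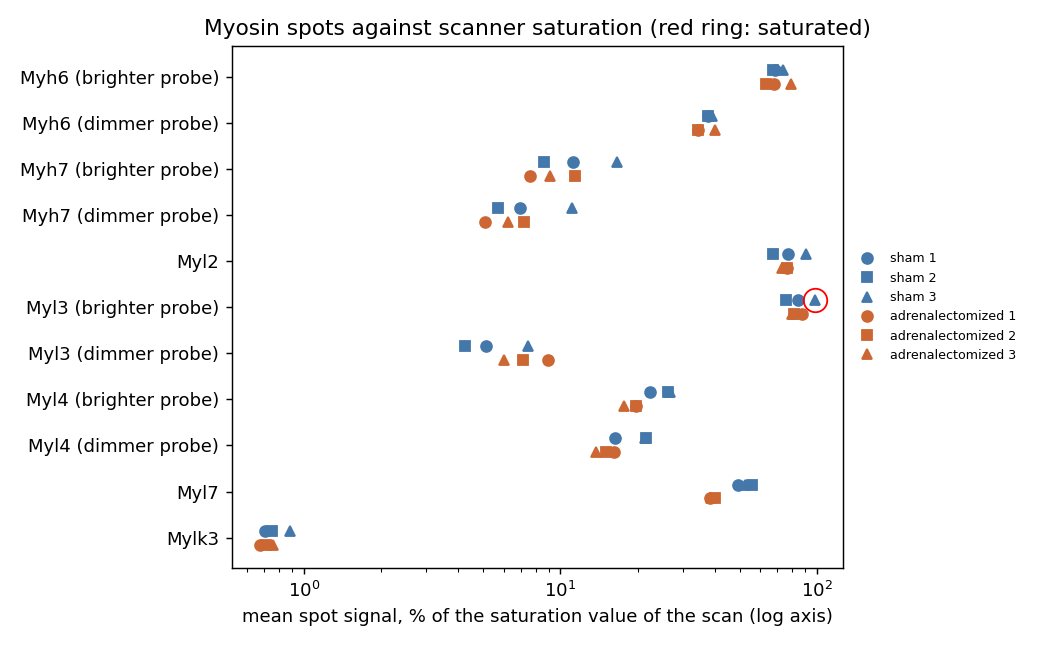
Mean spot signal of each myosin probe on each array, in percent of the saturation value of that scan (log axis). The red ring marks the saturated spot, the brighter Myl3 probe on sham replicate 3; Myl2 and the brighter Myh6 probe reach 90.5% and 79.1%, and Mylk3 stays under 1%.

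Saturation was otherwise absent: 1 of the 11 probes was saturated on 1 array. Myl2 lay between 67.7% and 90.5% of the saturation value and the brighter Myh6 probe between 63.5% and 79.1%, whereas Myl7 lay between 38.3% and 55.6% and the brighter Myl4 probe between 17.6% and 26.7%. Whether differences are compressed in the brightest spots was not tested.

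The contrast of atrial with ventricular light chains was taken within each array, as the mean of Myl4 and Myl7 minus the mean of Myl2 and Myl3, so that the scaling of the array cancels. Only its shift between groups is read, since signals of different probes are not comparable. It came to -1.58, -1.15 and -1.59 in sham hearts and to -1.79, -1.76 and -1.80 in adrenalectomized hearts. All adrenalectomized values lay under all sham values and close together, whereas sham replicate 2 stood apart above the other sham hearts. The means were -1.44 ± 0.25 and -1.78 ± 0.02 (SD, n = 3), a shift of -0.34 or 1.27-fold, which is larger than either group's SD. It was -0.20 without sham replicate 2, -0.35 within slide 1 and -0.36 with normexp background correction. With the dimmer, unsaturated Myl3 probe it was -0.59.

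Each pair of one kind was lower in all adrenalectomized hearts than in any sham heart. The regulatory pair, Myl7 minus Myl2, was -0.88, -0.43 and -0.95 in sham hearts and -1.15, -1.14 and -1.09 in adrenalectomized hearts, a shift of -0.37. The essential pair, Myl4 minus Myl3, was -2.29, -1.87 and -2.23 against -2.43, -2.39 and -2.50, a shift of -0.31, with the Myl3 probe that was saturated on sham replicate 3. With the unsaturated Myl3 probe the essential pair was 2.04, 2.57 and 1.73 against 1.08, 1.39 and 1.44, a shift of -0.81, again without overlap, so its size depends on the probe. Because the 7 genes were chosen with results of these data known, these contrasts are given without a p-value.

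**Figure D3:**
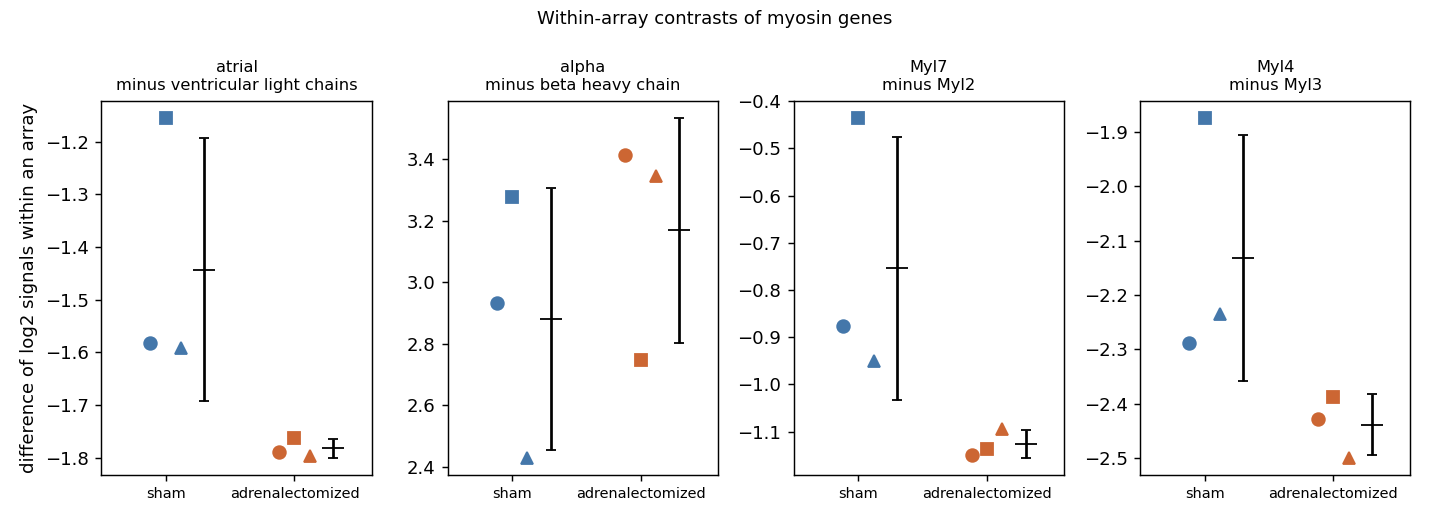
Differences of log2 signals within an array (vertical axis, a separate scale per panel) for the sham and adrenalectomized groups; symbols are replicates, and the bars beside them are the mean and SD. The 3 light chain contrasts do not overlap between groups, while the heavy chain contrast does.

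By group means the beta heavy chain had the wider difference, although the contrast of alpha with beta within an array overlapped between groups. Myh7 measured 6.67, 6.34 and 6.76 in sham hearts and 5.89, 6.37 and 6.14 in adrenalectomized hearts. Adrenalectomized replicate 2 lay above sham replicate 2, so the groups overlapped by that pair. The means of 6.59 ± 0.22 and 6.13 ± 0.24 (SD, n = 3) differed by -0.46 (SE 0.17, interval -0.86 to -0.06; limma adjusted p = 0.365), or 1.37-fold. The dimmer Myh7 probe gave -0.48 (SE 0.15) without overlap. Within slide 1 the difference was -0.70.

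Myh6 measured 9.60, 9.62 and 9.19 in sham hearts and 9.30, 9.12 and 9.48 in adrenalectomized hearts, and 2 of the 3 adrenalectomized values lay within the sham range. The difference was -0.17 (SE 0.16, interval -0.55 to 0.22; limma adjusted p = 0.707), and -0.19 (SE 0.15) with the dimmer probe. The order of arrays was not that of Myh7: sham replicate 3 was the lowest of the sham arrays for Myh6 and the highest for Myh7.

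Alpha minus beta chain, the isoform contrast within an array, was 2.93, 3.28 and 2.43 in sham hearts and 3.41, 2.75 and 3.34 in adrenalectomized hearts. The groups overlapped, and the shift of 0.29 toward the alpha chain (2.88 ± 0.43 to 3.17 ± 0.37; SD, n = 3) was smaller than the SD of either group. It ran from 0.27 to 0.31 over the combinations of probes, was 0.54 within slide 1 and 0.07 without sham replicate 3. The Myh6 side of this contrast may hold beta chain signal, since its probes also list Myh7 transcripts.

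At the heavy chain locus 1 more transcript was looked up, and no wider search was made there. Mhrt, a long noncoding RNA transcribed antisense to Myh7, was matched by its clone number to a probe at chr14:49840873-49840932 (mm7, plus strand) and lies outside the rule for named genes. It measured 4.42, 4.60 and 4.05 in sham hearts and 3.53, 3.76 and 3.88 in adrenalectomized hearts, without overlap. The difference was -0.63 (SE 0.17; limma adjusted p = 0.264). Whether the labelled cDNA keeps strand is not given in the sources used here.

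Mylk3, the cardiac light chain kinase, was measured far from saturation, between 0.671% and 0.880% of the saturation value. It measured 2.79, 2.97 and 2.68 in sham hearts and 2.52, 2.48 and 2.64 in adrenalectomized hearts. The groups stood apart by the narrow gap between sham replicate 3 and adrenalectomized replicate 3, and the difference was -0.26 (SE 0.12, interval -0.54 to 0.01; limma adjusted p = 0.428), or 1.20-fold. Its probe was designed on a neonatal heart clone rather than on a curated transcript.

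**Figure D4:**
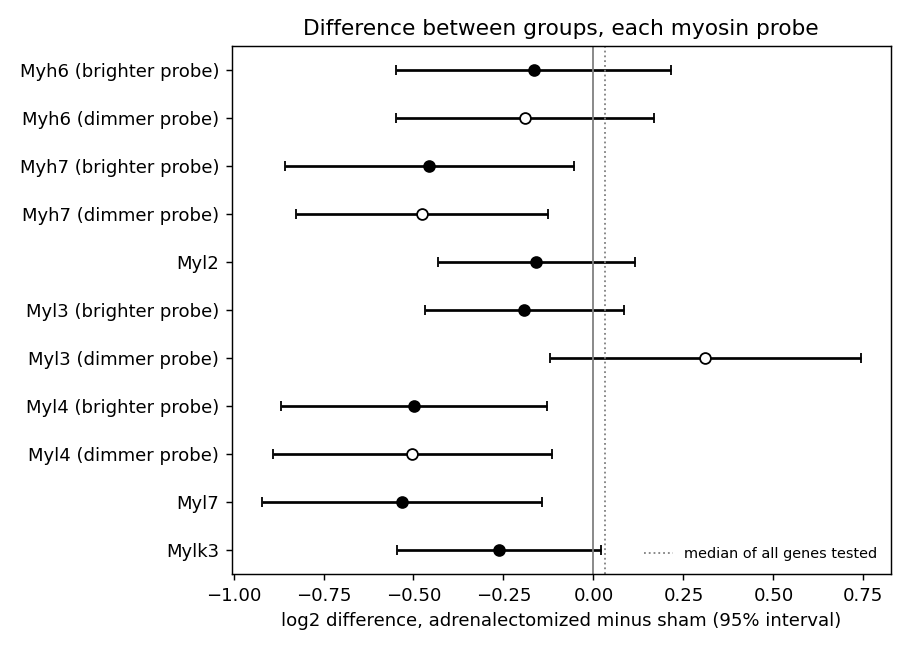
Log2 difference (adrenalectomized minus sham) of each myosin probe with its 95% interval from limma; filled points are the probes that represent a gene, and the dotted line is the median of all genes tested. The intervals of Myl4, Myl7 and Myh7 lie below 0, and those of Myh6, Myl2, Myl3 and Mylk3 include it.

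Apart from Myh7, the genes by the probes that represent them had positive Pearson correlations with each other over the 6 arrays. The points share arrays and scaling and fall into 2 groups. Myl4 and Myl7 had an r of 0.96, and Mylk3 had 0.95 with Myl7 and 0.88 with Myl4. Myl2 had 0.89 with the brighter Myl3 probe, which was saturated on 1 array, and -0.33 with the unsaturated one, so the sign turns with the probe. Between atrial and ventricular light chains r ran from 0.67 to 0.83, with Myl3 by its brighter probe. Myh6 had 0.60 to 0.80 with the light chains and Mylk3. Myh7 stood apart, at -0.01 with Myh6 and between 0.27 and 0.45 with the light chains, Myl3 by its brighter probe. The genes most like each member were picked as those of highest r among 13296 other named genes, over only 6 arrays. Such a search reached 0.990 to 0.998 for the first gene of every member. Functions are named for only some of these genes, and a link by function was not tested. For Myl4 the genes were Pnmt (r = 0.993), the enzyme that makes adrenaline, Tsc22d3 (0.989), a classic glucocorticoid target, and Serpinf1 (0.988). Most like Myl7 were Wdsub1 (0.993), Wdr82 (0.993) and Lsm6 (0.991). For Myl2 they were Ccrl2 (0.996), Gja1 (0.988), the main gap junction gene of the ventricle, and Gramd4 (0.983), and for the brighter Myl3 probe Hrc (0.995), a calcium-binding protein of the sarcoplasmic reticulum, and Ndufa7 (0.990). For Myh6 they were Nfe2l1 (0.998), Slu7 (0.993) and Stxbp6 (0.992), for Myh7 Hmcn1 (0.990), Caap1 (0.988) and Ifnar1 (0.969), and for Mylk3 Zfp445 (0.998), Zfp579 (0.998) and Cyria (0.993).

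Other atrial genes were lower on the same arrays as the atrial light chains. Of 12 listed, 11 were tested and Nr2f1 was too dim. All 11 had lower means in adrenalectomized hearts, 9 without overlap, where 43.4% and 7.89% of all genes did. The atrial genes had a median difference of -0.70, and 0 passed the limma test. Their mean level was 2.82 to 3.35 in sham hearts and 2.37 to 2.38 in adrenalectomized hearts. The distance of the median gene from its sham mean ran to -0.02, 0.28 and -0.20 in sham hearts and -0.72, -0.56 and -0.71 in adrenalectomized hearts, so sham replicate 2 was again the highest. Pam, an enzyme of atrial granules, differed by -1.07 (SE 0.21; limma adjusted p = 0.195) and Mybphl, an atrial thick filament protein, by -0.72 (SE 0.15; limma adjusted p = 0.202). The defining marker Nppa, atrial natriuretic peptide, stayed well detected, at 8.85 to 8.99 in adrenalectomized hearts against 9.27 to 9.94 in sham hearts. Sln, a regulator of the calcium pump, differed by -0.61 and Bmp10, an atrial growth factor, by -1.37; with Nppa, these genes were picked with their values in view. The part of atrial tissue content in the light chain contrast was not tested.

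Of 7 ventricular genes tested, 4 had lower and 3 higher means, with a median of -0.02 and 0 called. Without overlap 3 were lower and 1 was higher, where 7.89% and 10.3% of all genes were. Irx3 differed by -0.61 (SE 0.13; limma adjusted p = 0.207) and Kcnip2, a subunit of the transient outward potassium channel, by 0.76 (SE 0.26; limma adjusted p = 0.333), both without overlap. The other genes lower without overlap, Irx5 at -0.32 and Hey2 at -0.41, were named after their values were seen. Among 11 other heart muscle genes 10 had lower means, with a median of -0.20 and 0 called. This was close to the -0.16 of Myl2 and to the -0.19 of the brighter Myl3 probe, but not to the 0.31 of the unsaturated Myl3 probe. The values of this and all other lists are from the main processing only. Normexp background correction moved Myl2 and Myl3 to 0.22 and 0.21, and whether it turns the lists was not tested. Tnni3, cardiac troponin I, differed by -0.29 and Cox6a2, a heart subunit of cytochrome c oxidase, by -0.32 (limma adjusted p = 0.389 and 0.403).

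Of 14 genes of proteins that bind, fold or turn over myosin, 13 were tested, 10 had lower means and 0 were called, with a median of -0.18. Beside Mybphl, Mybph (myosin binding protein H) differed by -0.74 (SE 0.21; limma adjusted p = 0.271). The myosin-binding protein C gene Mybpc3 differed by -0.18 and titin (Ttn) by -0.00063, both chosen after their values were seen. Of 9 tested genes of light chain phosphorylation 6 had lower means and 0 were called, with a median of -0.08; Rock1, whose kinase inhibits the light chain phosphatase, differed by -0.68 (SE 0.27; limma adjusted p = 0.385) and the smooth muscle kinase gene Mylk by -0.25.

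Of 23 regulators known to act on cardiac myosin genes, 21 were tested. Lower means were found for 18, 10 of them without overlap, and 0 were called, with a median of -0.27. Over all genes 43.4% had lower means and 7.89% were lower without overlap. The distance of the median regulator from its sham mean was 0.02, 0.10 and -0.08 in sham hearts. In adrenalectomized hearts it was -0.32, -0.30 and -0.27, without overlap. Nr2f2 is also among the atrial genes, and Irx4 and Hey2 are among the ventricular ones. The T-box factors Tbx20 and Tbx5, which act in chamber development, differed by -0.62 (SE 0.10; limma adjusted p = 0.148) and -0.60 (SE 0.14; limma adjusted p = 0.211). The thyroid hormone receptor genes Thra and Thrb, chosen after their values were seen, measured 4.73, 4.81 and 4.61 against 3.89, 4.06 and 4.45, and 0.17, 0.14 and -0.21 against -0.71, -0.36 and -0.36. Their differences of -0.58 and -0.51 (limma adjusted p = 0.269 and 0.299) were without overlap.

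Myosins of other cells did not pass either. Of 8 tested heavy chains 7 had lower means (median -0.17), led by Myh11 of smooth muscle at -0.33 (SE 0.20) and Myh8, the perinatal skeletal chain, at -0.23 (SE 0.17). The sham means of Myh8 and the skeletal chain Myh4 were 8.81 and 8.17, against 6.59 for Myh7 and -3.50 for Myh1, by probes of unlike signal. As for Myh6, Myh8 was lowest of the sham arrays on replicate 3 and highest of the adrenalectomized arrays on replicate 3. The same held for Myh3, Myh9, Myh11 and Myh14, so this order is not particular to Myh8. Whether the probes of the skeletal chains also report cardiac heavy chain RNA was not tested. Of 7 tested light chains 5 had lower means (median -0.18), led by Myl1 of fast skeletal muscle at -0.68 (SE 0.33) and Myl9 of smooth muscle at -0.84 (SE 0.40). Myl9 was left out on sham replicate 1 as an outlier spot and was high on sham replicate 2 (6.78 against 5.37 on sham replicate 3 and 5.07 to 5.35 in adrenalectomized hearts). Myl1 was also high on sham replicate 2, at 6.56 against 5.50 and 5.18 on sham replicates 1 and 3. Its adrenalectomized values were 4.98 to 5.13.

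Markers of other cells differed between arrays. Distances and mean levels are over the genes measured on all 6 arrays. The distance of the median smooth muscle gene was -0.14, 0.32 and -0.20 in sham hearts and -0.37, -0.33 and -0.11 in adrenalectomized hearts, with 7 of 8 genes lower, Tagln at -0.69 (SE 0.25), and a mean level of 2.40 to 3.28 against 2.25 to 2.54. Skeletal muscle markers had lower means for 9 of 11 genes (median -0.23), Tnni2 at -1.15 (SE 0.23; limma adjusted p = 0.197) and Actn3 at -0.39, and a mean level of -0.45 to 0.14 against -0.70 to -0.27. Fat cell markers had higher means for 8 of 8 genes, with a median of 1.37, Ucp1 at 2.88 (SE 0.82; limma adjusted p = 0.274) and Plin1 at 1.79 (SE 0.68), and a mean level of 1.77 to 3.62 against 3.13 to 4.99. Red cell markers had higher means for 3 of 3 tested genes, Slc4a1 at 0.92 and Alas2 at 0.77, and stood at 4.01 to 4.31 against 3.65 to 5.51. No gene of these lists was called, and their part in the myosin values was not tested.

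**Figure D5:**
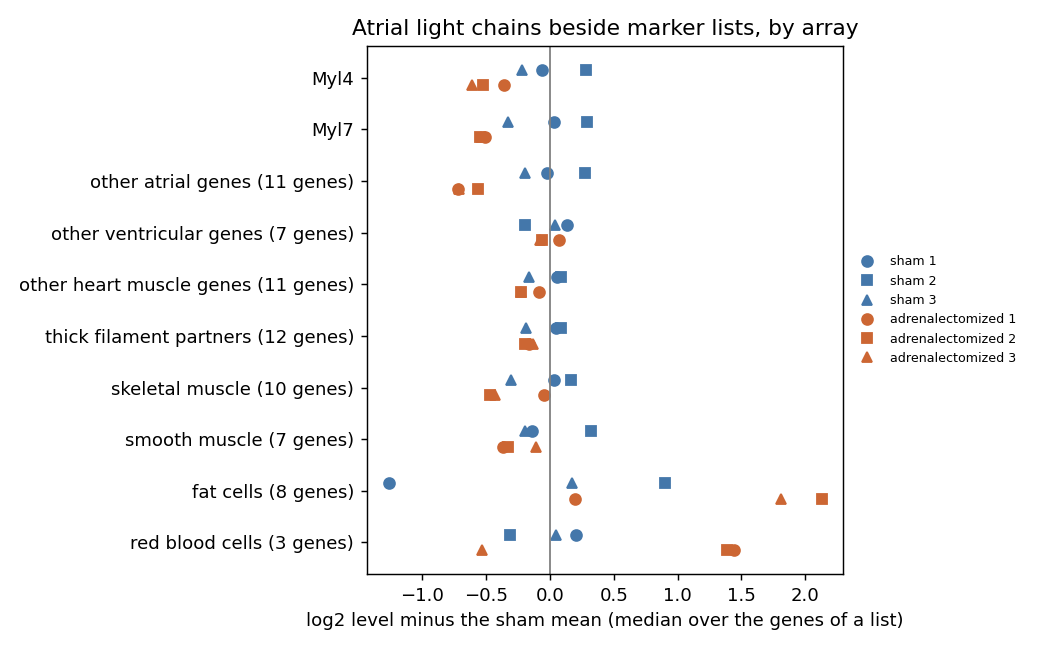
Distance of Myl4, Myl7 and the median gene of each marker list from the sham mean (horizontal axis, log2) on each array; symbols are replicates. Other atrial genes separate the groups as Myl4 and Myl7 do. Fat cell markers are highest on adrenalectomized replicates 2 and 3, and every other list drawn overlaps between groups. The regulators of cardiac myosin genes, which are not drawn, also separate the groups.

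The sequences before the start sites were searched for motifs of muscle and glucocorticoid regulation, in the 250 bases upstream in RefSeq's GRCm38.p6 promoter table, on both strands. All 7 genes matched, with 10 windows, since 3 genes have 2 starts. The TEAD-binding core CATTCC was in 5 of the 10 windows (Myh6, Myh7, Myl3, Myl7 and Mylk3) and in 12.6% of all 32851 windows. The CArG box, bound by serum response factor, was in 2 of them (Myl3 and Myl7) and in 1.47% of all windows. The glucocorticoid receptor half-site AGAACA was in 1 (Myl4) and in 16.1% of all windows, and its inverted repeat, AGAACA followed after 3 bases by its reverse complement, in 0 of 10 and in 3 of all windows. The windows of Myl7 and Myl3, the atrial and the ventricular gene with both muscle motifs, are printed with CATTCC, its complement or the CArG box in capitals, at chr11:5898783-5899032 (minus strand) and chr9:110763428-110763677 (plus strand). A match describes letters only, and no binding was measured.
Myl7: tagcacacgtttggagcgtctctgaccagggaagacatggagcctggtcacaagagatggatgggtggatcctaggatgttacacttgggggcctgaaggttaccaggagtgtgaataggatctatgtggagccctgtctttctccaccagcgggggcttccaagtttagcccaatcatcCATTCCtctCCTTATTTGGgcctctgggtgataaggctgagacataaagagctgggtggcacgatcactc
Myl3: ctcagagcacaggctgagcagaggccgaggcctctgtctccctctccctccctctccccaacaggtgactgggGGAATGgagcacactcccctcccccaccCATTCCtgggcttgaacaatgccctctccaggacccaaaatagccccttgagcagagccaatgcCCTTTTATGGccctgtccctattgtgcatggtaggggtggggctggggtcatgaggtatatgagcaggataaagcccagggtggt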

How the data were processed

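RNA of 6 hearts was amplified from 50 ng, and 5 µg of the cDNA carried Cy3, per the labels' protocols. Spots were read by Feature Extraction 9.5.3.1, per the file headers (the submitters' processing notes give 9.5). The deposited signal is a linear intensity, background-subtracted and detrended within the array and not normalized between arrays, per the file headers. In the deposited value table the intensity of all 45018 spots equalled it within a relative 1e-06, on a linear scale without centring, with column medians of 70.8, 68.1 and 84.4 (sham) and 75.1, 92.2 and 80.9 (adrenalectomized).

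Outlier and control spots were left out, log2 signals were taken relative to the 75th percentile of noncontrol spots, and repeat spots were averaged. Probes were named through RefSeq accessions (22951, 55.7%) or by the scanner name. Tested probes had most of their spots well above background on all arrays of 1 group or more (23989 probes, 16948 genes). limma 3.58.1 in R 4.3.3 fitted all genes, with Benjamini-Hochberg adjustment, and was tested on simulated data. Python 3.11.15 with pandas 2.3.3, numpy 2.4.6 and matplotlib 3.10.9 was used. Named genes were the 7 genes, the 2 list genes of smallest p from each of 12 lists, and the 3 most correlated genes per member. Clone-named genes were left out of the last step, and 1 gene it named is not reported here. Members and lists were chosen with earlier results of these data known. Groups came from the labels, whose design text calls the samples biological replicates. The alternatives were those of background, scaling, filter, probe choice, slide, replicate number, variance model, array weights, threshold and single arrays left out.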

Additional observations from a re-analysis of the deposited data

How the results depend on the processing

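None of the 7 genes passed the limma threshold under any of 24 alternatives. Myl4, Myl7 and Myh7 stayed below the sham mean in all 23 fits that gave a difference. Normexp background correction turned Myh6 (0.26), Myl2 (0.22), Myl3 (0.21) and Mylk3 (0.071), quantile normalization turned Myh6 (0.0039), and Myl3 was also turned by the mean of its probes (0.059) and by its unsaturated probe (0.31); no other alternative turned a gene. The light chain contrast stayed below 0 in 19 of 19 alternatives, from -0.59, with the unsaturated Myl3 probe, to -0.20, and with an array left out it ran from -0.41 to -0.20. The heavy chain contrast stayed above 0 in 19 of 19, and from 0.07 to 0.50 with an array left out. These counts overstate the support, because the scaling of an array cancels in both contrasts. Median centring and the 75th percentile over detected probes could not move them from -0.34 and 0.29. The deposited value table, both filter settings, every probe tested and outlier spots kept returned the same values. The slide as a fixed block was computed as slide 1 alone (-0.35 and 0.54). The number of all genes called, 7, was 6076 with normexp, 2 with the 75th percentile over detected probes, with the mean of probes or with outlier spots kept, 1 without a filter on dim probes, with probes above background on all 6 arrays, with every probe tested or with the slide as a fixed block, 43 on slide 1 alone, 13 with a variance trend and robust estimation together, 75 with array weights, 34 at an adjusted p of 0.1, and 1 to 42 with an array left out (2, 7 and 1 without sham replicate 1, 2 or 3, and 42, 2 and 4 without adrenalectomized replicate 1, 2 or 3). The cause was not tested. With the replicate block 1 gene was called and 0 of the 7 genes. The same-numbered samples had correlations of deviations of 0.14, 0.14 and -0.20, so the numbers were not taken as pairs; 1 of 3 sham arrays correlated best with its own number. The brighter Myl3 probe was saturated on 1 array, and what signals near saturation do to the differences of Myl2 and Myh6 was not tested.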
